A study of Mus musculus with 21 samples.

Results

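The mitochondrial genome of the mouse was represented in the count tables by 37 genes whose symbols start with mt-, of 55418 genes listed. They are 13 protein genes, 2 rRNA genes and 22 tRNA genes, and every gene with that prefix was taken, whatever its counts. They were measured by RNA-seq of total RNA from 21 whole mouse livers, flushed with PBS and held in RNAlater. The groups were 6 Mboat7 wildtype (WT) livers on chow, 7 livers with Mboat7 deleted in hepatocytes (KO) on chow, 4 WT livers on HFMCD and 4 KO livers on HFMCD. HFMCD is a diet rich in fat, low in methionine and without choline, and the treatment notes write it HFCDD. Mboat7 is an acyltransferase of the membrane lipid phosphatidylinositol, and the comparisons ask what its loss from hepatocytes and the diet do to the liver transcriptome. Chow mice were 10 weeks old, and HFMCD mice were fed the diet for 6 weeks from an age of 6 to 8 weeks, so diet, age and the 2 separate runs of animal numbers cannot be told apart. The Cre driver and the deleted stretch of Mboat7 are not given in the sources used here. No label pairs livers across groups, and each library was read as 1 liver, so p-values measure the spread between livers of a group.

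Mitochondrial DNA is a small circle that is read from both strands into long transcripts by a dedicated RNA polymerase. The heavy-strand transcript carries both rRNAs, most tRNAs and nearly all mRNAs, and the light-strand transcript carries the mRNA of mt-Nd6 and the remaining tRNAs. The tRNAs lie between the other genes and are cut out, which frees the mRNAs and rRNAs, and most of these then receive short A tails. The proteins are subunits of respiratory complexes I, III and IV and of ATP synthase, which nuclear genes complete. Pieces of mitochondrial DNA have also entered the chromosomes during evolution, and reads from a recent piece match both places.

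Of the 37 genes, 15 had enough counts to be tested (7 protein, 2 rRNA and 6 tRNA genes), and 22 did not. Among the latter, 11 had 0 counts in every library, including mt-Atp8, mt-Nd3 and mt-Nd4l. A count of 0 allows up to 3 counts in a library, or 0.116 to 0.171 CPM (counts in each 1000000 of the library), as counting error only. mt-Co3, a core subunit of cytochrome c oxidase, had 1 count in all libraries together. mt-Co2, another core subunit of that enzyme, had 151 counts, and mt-Atp6, a membrane subunit of ATP synthase, had 91 in KO chow replicate 2 and at most 6 in any other library. The other 8 genes are tRNA genes with at most 13 counts in a library. By contrast, mt-Co1 had 5133188 counts over the 21 libraries and mt-Cytb had 5030623. The 6 near-empty protein genes are neighbours, from mt-Co2 at chrM:7013-7696 to mt-Nd4l at chrM:9877-10173 (GRCm38, plus strand).

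Most of that stretch has a nearly identical annotated copy in the nuclear genome. In the GENCODE M21 annotation of GRCm38, 7 pseudogenes at chr1:24611535-24616197 (minus strand) line up in order with chrM:6390-11042. Over 4140 aligned bases they differed from the mitochondrial genes at 2. By position, 11 of the 37 genes lie wholly within the matching stretch, 6 of them protein genes and 5 tRNA genes. Those 6 are the 6 near-empty ones. No aligned copy was found for mt-Atp8 or the 5 tRNA genes, as only annotated transcripts were compared. The copies of mt-Co2 (Gm28661, 681 bases), mt-Atp6 (Gm10925, 678 bases), mt-Co3 (Gm28437, 783 bases) and mt-Nd4l (Gm10222, 294 bases) were identical to the genes over the bases aligned. The copy of mt-Nd3, a complex I subunit, differed at 1 of 345 bases, written T3C and counted from the first base of the gene. The first 60 bases of that pair are shown to make the likeness visible, with an older copy of part of mt-Cytb, bases 472 to 531, for contrast. Capitals mark the bases that differ within a pair. The 4 stretches are chrM:9459-9518 (plus), chr1:24613060-24613119 (minus), chrM:14616-14675 (plus) and chr4:80004460-80004519 (plus), all GRCm38.
mt-Nd3: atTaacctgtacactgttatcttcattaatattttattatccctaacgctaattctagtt
Gm28438: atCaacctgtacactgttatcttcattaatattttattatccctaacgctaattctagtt
mt-Cytb: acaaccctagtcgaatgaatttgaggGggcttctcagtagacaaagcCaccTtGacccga
Gm11410: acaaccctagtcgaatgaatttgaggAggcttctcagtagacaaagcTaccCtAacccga

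A read that fits 2 places equally can be dropped or shared by a counting step, and what was done with such reads here is not given in the sources used here. The share of a gene's 50-base windows that also occur in an annotated nuclear copy was 100% for mt-Co2, 99.9% for mt-Co3, 99.5% for mt-Atp6, 98.8% for mt-Nd4l and 98.0% for mt-Nd3. mt-Atp8, an ATP synthase subunit at chrM:7766-7969, lies inside the same stretch and was at 0, but no annotated copy covers it and its share was 0%. The stretch between the annotated copies was not compared here. Of the well-counted genes, mt-Nd4 shared 62.2% and mt-Co1 51.1% of its windows. The chromosome 1 copy ends inside mt-Nd4 and covers 483 bases of mt-Co1, which has further copies elsewhere. mt-Nd2 shared 8.19%, mt-Nd5 7.61% and mt-Rnr2 1.04%, and mt-Rnr1, mt-Nd1, mt-Nd6 and mt-Cytb shared 0%. The values of the 6 near-empty genes are therefore not read as expression levels below, and no direction is given for them.

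**Figure D1:**
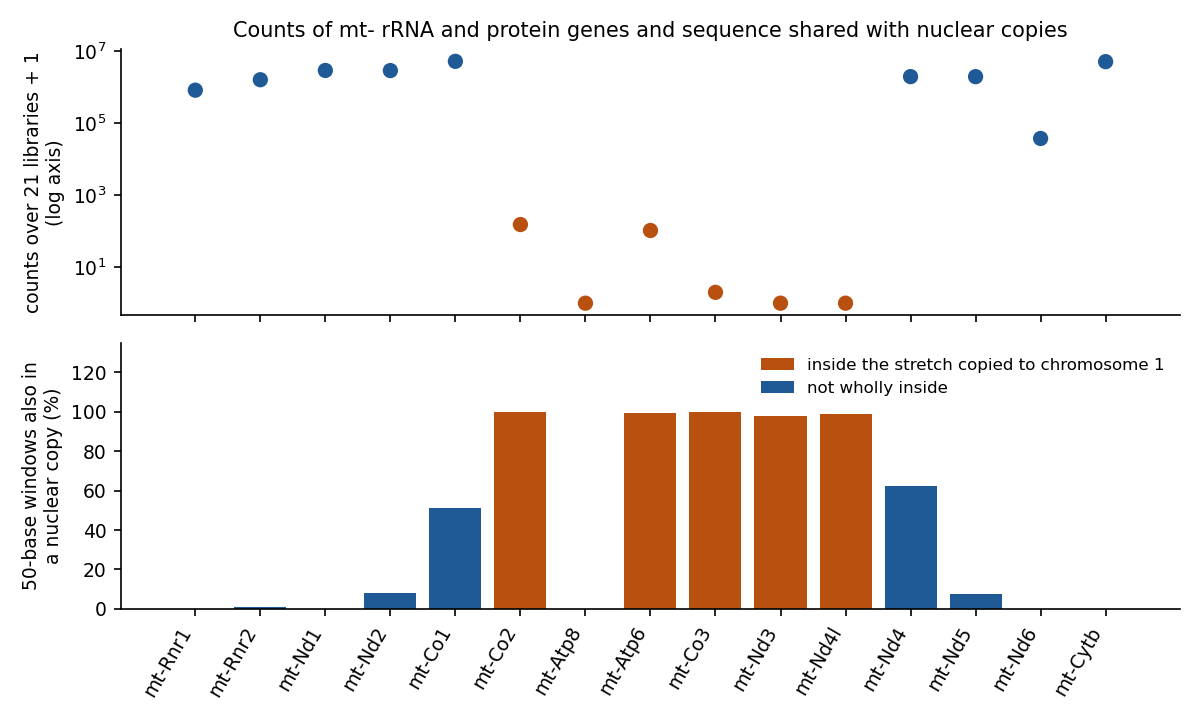
The upper plot gives each mt- rRNA and protein gene's counts summed over 21 libraries plus 1 on a log axis. The lower plot gives the percent of its 50-base windows found in an annotated nuclear copy. Genes are in genome order, and those inside the copied stretch by position are in orange. The 6 orange genes have at most 151 counts each, and 5 of them share at least 98.0% of their windows, while mt-Atp8 shares 0%.

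The nuclear copies themselves had few counts, with single libraries standing out. Gm28437, the copy of mt-Co3, had a median of 1 count per library but 960 in KO chow replicate 1 and 449 in WT chow replicate 2. Gm10925, the copy of mt-Atp6, had 1347 of its 1423 counts in KO HFMCD replicate 1. Gm29216, the copy of the end of mt-Co1, had 519 in KO chow replicate 6. In the libraries with 960, 449 and 1347 counts, mt-Co3 and mt-Atp6 themselves had at most 1 count. Of the diverged copies, Gm13340 and Gm13341 had counts in every library. Gm13340, a copy of all of mt-Co1 with 97.6% identity at chr2:22588103-22589647, was at 3.70 ± 0.698 CPM in WT livers on chow (SD, n = 6) and 1.55 ± 0.128 in WT livers on HFMCD (SD, n = 4). Its log2 fold change with the diet was -1.25 (SE 0.19, edgeR adjusted p 5.9e-06) in WT and -1.04 (SE 0.18, edgeR adjusted p 2.9e-05) in KO, opposite in sign to that of mt-Co1 below. Gm13341, also on chromosome 2, did not share this, at 0.03 (SE 0.24, edgeR adjusted p 0.92) in WT and -0.03 (SE 0.23, edgeR adjusted p 0.91) in KO.

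Compared per length, the well-counted genes differed among themselves in livers on chow. In WT livers on chow mt-Cytb, the cytochrome b subunit of complex III, had 8673 ± 727 CPM per kilobase (SD, n = 6). mt-Co1, the catalytic subunit of cytochrome c oxidase, had 5643 ± 739, mt-Nd2 5234 ± 430 and mt-Nd1 5161 ± 350, and these 3 lay within each other's spread. mt-Nd4 had 2822 ± 276, mt-Rnr2 2392 ± 266, mt-Rnr1 2065 ± 323 and mt-Nd5 1694 ± 194 on the same scale. mt-Nd6, the sole light-strand mRNA and a complex I subunit, had 146 ± 17.6, far under the lowest heavy-strand mRNA. Counted instead per 1000 windows of 50 bases that no nuclear copy shares, mt-Co1 had 11927 CPM, mt-Cytb 9061, mt-Nd4 7746, mt-Nd2 5983 and mt-Nd1 5439. With windows of 100 bases, mt-Co1 had 1000 unshared windows for its 8718 CPM and mt-Cytb 1045 for its 9922 CPM, so mt-Cytb stayed above. mt-Nd4 had 502 unshared windows at either length. The place of mt-Nd4 thus depends on how shared sequence was treated, and the order of mt-Co1 and mt-Cytb also on the window length. Whether that treatment also enters comparisons of these genes across livers was not tested. Of the 6 tested tRNA genes, mt-Ti was at 192 ± 39.3 CPM per kilobase, above mt-Nd6, and the others were below it, from 45.0 for mt-Tp to 14.8 for mt-Te.

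Library totals ran from 17502231 to 25822972 counts. Mboat7 was at 36.2 ± 2.72 CPM in WT and 21.3 ± 1.77 in KO livers on chow, and at 36.3 ± 1.47 and 18.9 ± 2.24 on HFMCD, with no overlap between genotypes. In all values of this kind, CPM is relative to the total of the 15677 genes tested, scaled by edgeR's TMM method. Hepatocyte markers summed to 105964 to 159314 CPM in WT and 110464 to 137850 in KO livers on chow, and to 105183 to 119644 and 101258 to 108448 on HFMCD, and 7 of 12 of them were lower with the diet in WT and 9 in KO. Over all tested genes, 29% were called higher and 33.6% lower with the diet in WT, and 33.7% and 36% in KO. Markers of several other cell types, but not of all, summed higher with the diet. Neutrophil sums were higher without overlap in both genotypes. Endothelial and lymphocyte sums were higher without overlap in WT and overlapped between diets in KO. Erythroid, smooth muscle and mesothelium sums overlapped in both. Kupffer cell and macrophage markers summed to 222.5 to 615.5 CPM in WT and 331.4 to 460.1 in KO livers on chow and to 1976 to 2309 and 1945 to 2510 on HFMCD, with 8 of 9 called higher in WT and 7 in KO. Stellate cell and fibroblast markers summed to 208.5 to 494.2 CPM over the livers on chow and to 1024 to 1462 on HFMCD, with 6 of 8 called higher in each genotype. Cholangiocyte markers summed to 29.2 to 67.0 CPM in WT and 34.3 to 104.2 in KO livers on chow and to 190.1 to 232.1 and 533.7 to 785.5 on HFMCD, with 3 of 7 called higher in WT and 6 in KO. In whole liver, fewer cells of a type and less RNA per cell cannot be told apart, and the part of cell makeup in the mitochondrial results was not tested. Skeletal muscle markers summed to 1928 CPM in 1 library, KO chow replicate 7, and to no more than 2.01 in the rest, so the counts of called genes were also run without it and KO chow replicate 1.

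Mitochondrial transcripts took a larger share of the library on HFMCD than on chow in both genotypes. The 37 genes together held 3.70% to 4.34% of all counts in WT livers on chow, with a median of 3.83%. In WT livers on HFMCD they held 6.19%, 5.18%, 5.26% and 5.55%. The lowest liver on HFMCD thus lay above the highest on chow, and the means were 3.92% ± 0.247 (SD, n = 6) and 5.54% ± 0.458 (SD, n = 4). KO livers held 3.80% to 4.60% on chow, with a median of 4.00%, and 5.79%, 5.60%, 5.99% and 6.99% on HFMCD. Again the diets did not overlap, with means of 4.16% ± 0.321 (SD, n = 7) and 6.09% ± 0.621 (SD, n = 4). The difference between diets was 1.62 percentage points in WT and 1.94 in KO, and KO minus WT was 0.236 points on chow and 0.551 on HFMCD, where the genotypes overlapped and the difference was 0.251 without KO HFMCD replicate 4. Exact 95% binomial intervals of single shares were at most 0.0102 points to either side and cover counting error only, so the spread between livers, not depth, sets the precision. As a sum over genes, the share is given without a test.

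The larger share was that of the mRNAs, while the share of the rRNAs was smaller. Protein genes held 3.38% ± 0.235 of all counts in WT livers on chow and 5.20% ± 0.488 on HFMCD, and 3.46% ± 0.255 and 5.71% ± 0.572 in KO. The rRNA genes held 0.541% ± 0.0766 in WT livers on chow and 0.338% ± 0.0414 on HFMCD, without overlap. In KO livers they held 0.694% ± 0.146 on chow and 0.384% ± 0.112 on HFMCD, and these ranges overlapped. Within the mitochondrial counts alone, where no library scaling enters, rRNA counts per mRNA count were 0.128 to 0.196 in WT livers on chow, with a median of 0.156, and 0.0533, 0.0761, 0.0781 and 0.0560 on HFMCD. In KO livers they were 0.132 to 0.268 on chow, with a median of 0.203, and 0.0499, 0.0584, 0.0940 and 0.0669 on HFMCD. Every liver on HFMCD was below every liver on chow, in either genotype. The tRNA genes together held 0.00206% of counts in WT and 0.00303% in KO livers on chow, and 0.00253% and 0.00255% on HFMCD, with overlap.

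**Figure D2:**
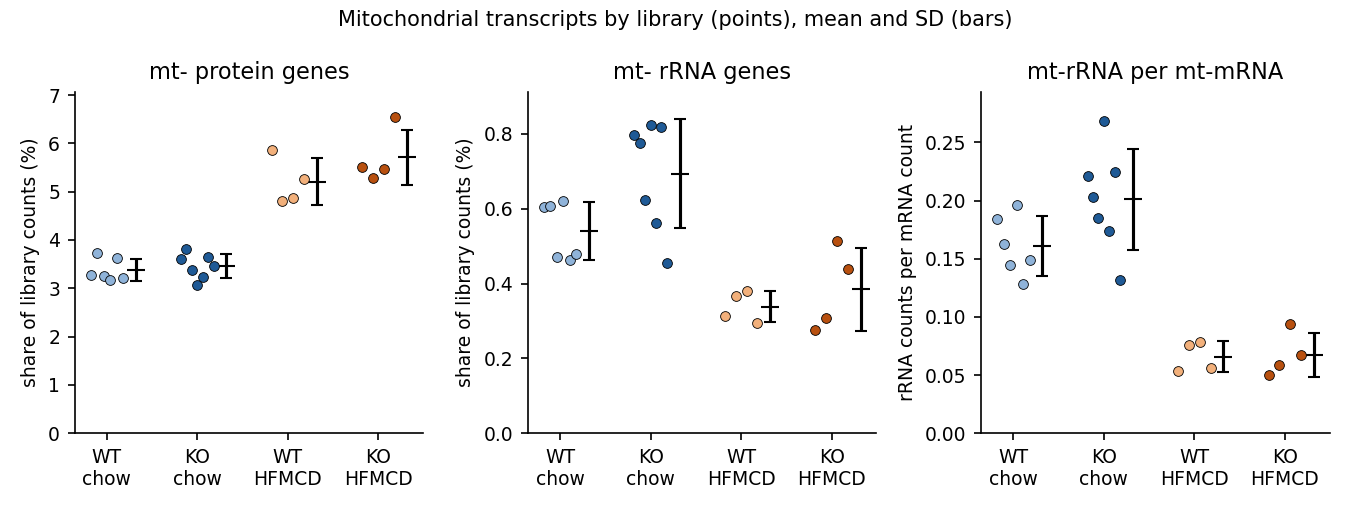
Points are single livers by group, and bars give the mean and SD of the share of library counts (%) of mt- protein genes (left) and mt- rRNA genes (middle), and of rRNA counts per mRNA count (right). The protein share is higher and the rRNA-to-mRNA ratio lower in all livers on HFMCD than in any liver on chow.

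In the test across all genes, 7 of the 15 tested genes were higher and 3 lower with HFMCD in WT livers, and 7 were higher and 5 lower in KO livers, by edgeR's quasi-likelihood test at an adjusted p under 0.05. The lower genes include mt-Te in both, which passed the filter on low counts only through the chow groups, so that it had to be higher there, and its call is not read as a result. The diet moved much of the transcriptome: 29% of all tested genes were called higher and 33.6% lower in WT, and 33.7% and 36% in KO. Against that background a call as such does not set these genes apart, and the values below show which of them were higher and which lower. The median log2 fold change of the 15 was 0.24 in each genotype, beside -0.05 over all tested genes in WT and -0.02 in KO. Both diet comparisons use separate livers, so the WT and KO values share no sample.

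Both rRNAs fell. mt-Rnr1 (chrM:70-1024), the RNA of the small mitoribosomal subunit, was at 1614 to 2303 CPM in WT livers on chow, with a median of 1987, and at 903, 1207, 1139 and 831 on HFMCD. In KO livers it was at 1417 to 3314 on chow, with a median of 2791, and at 735, 778, 1511 and 1282 on HFMCD. WT groups did not overlap, and KO groups did, through the lowest liver on chow and the highest on HFMCD. Its log2 fold change was -0.95 (SE 0.22, edgeR adjusted p 0.0008) in WT and -1.24 (SE 0.22, edgeR adjusted p 3.6e-05) in KO. mt-Rnr2 (chrM:1094-2675), the RNA of the large subunit, went from 3784 ± 421 to 2209 ± 301 CPM in WT and from 4596 ± 898 to 2428 ± 705 in KO. That is a log2 fold change of -0.78 (edgeR adjusted p 0.00034, SE 0.17) and of -0.92 (SE 0.16, edgeR adjusted p 3.2e-05), and again only the KO groups overlapped.

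Among the mRNAs of complex I, the enzyme that takes electrons from NADH, mt-Nd5 and mt-Nd1 rose most. mt-Nd5 (chrM:11742-13565), a proton-pumping membrane subunit, was at 2710 to 3583 CPM in WT livers on chow, with a median of 3050.5, and at 6542, 4295, 4429 and 5637 on HFMCD. KO livers had 2793 to 3296 CPM on chow, with a median of 3066, and 6126, 5339, 4671 and 7023 on HFMCD. No liver on HFMCD came as low as a liver on chow, and the log2 fold change was 0.76 (SE 0.12, edgeR adjusted p 1e-05) in WT and 0.93 (SE 0.12, edgeR adjusted p 2.4e-07) in KO. mt-Nd1 (chrM:2751-3707), a membrane subunit beside the quinone site, was at 4370 to 5291 CPM in WT livers on chow and at 8533, 6894, 7978 and 7160 on HFMCD. Its KO values were 4339 to 5328 CPM on chow and 7802, 7890, 6844 and 9289 on HFMCD, again without overlap, and its log2 fold change was 0.63 (SE 0.09, edgeR adjusted p 3.9e-06) and 0.73 (SE 0.09, edgeR adjusted p 1.9e-07). mt-Nd2 (chrM:3914-4951), another membrane subunit, rose less, from 5433 ± 446 to 6705 ± 736 CPM in WT and from 5548 ± 405 to 7049 ± 984 in KO, with log2 fold changes of 0.30 (edgeR adjusted p 0.0099) and 0.35 (edgeR adjusted p 0.0026). mt-Nd4 (chrM:10167-11544), also a proton-pumping subunit, was the weakest call, with a log2 fold change of 0.24 in both genotypes and edgeR adjusted p of 0.042 in WT and 0.031 in KO. Its groups overlapped in both, and several single livers decide its call, as does leaving out KO chow replicates 1 and 7 together (edgeR adjusted p 0.054 in WT and 0.079 in KO).

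mt-Co1 (chrM:5328-6872) also rose, and by more than mt-Cytb. It was at 7410 to 10414 CPM in WT livers on chow, with a median of 8681, and at 14526, 12186, 13181 and 13032 on HFMCD. In KO livers it was at 7089 to 10001 CPM on chow, with a median of 8451, and at 13254, 12745, 15443 and 16881 on HFMCD. All 8 livers on HFMCD were above all 13 on chow, and the log2 fold change was 0.60 (SE 0.11, edgeR adjusted p 7e-05) in WT and 0.76 (SE 0.11, edgeR adjusted p 1.7e-06) in KO. mt-Cytb (chrM:14145-15288) went from 9208 to 11192 CPM in WT livers on chow to 13880, 11538, 11329 and 11628 on HFMCD, and from 8933 to 11276 CPM in KO livers on chow to 11579, 10996, 12373 and 12756 on HFMCD. WT groups were apart by a small gap and KO groups overlapped, and the log2 fold change was 0.29 in both (SE 0.09, edgeR adjusted p 0.01 in WT and 0.0058 in KO). Without WT HFMCD replicate 1, the highest of its group, mt-Cytb was at 0.22 (edgeR adjusted p 0.060), mt-Nd2 at 0.23 (edgeR adjusted p 0.060) and mt-Nd4 at 0.17 (edgeR adjusted p 0.18) in WT.

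mt-Nd6 (chrM:13552-14070, minus strand) was not called. It was at 66.1 to 91.3 CPM in WT livers on chow, with a median of 74.6, and at 69.6, 83.7, 91.0 and 85.03 on HFMCD. KO livers had 64.8 to 79.4 CPM on chow, with a median of 75.4, and 69.5, 56.6, 132.2 and 104.6 on HFMCD, the widest spread relative to its mean of any mRNA tested. The groups overlapped in both genotypes, with log2 fold changes of 0.12 (SE 0.16, edgeR adjusted p 0.53) and 0.32 (SE 0.15, edgeR adjusted p 0.066). The KO value passed the threshold under 4 other scalings (edgeR adjusted p 0.0073 to 0.038), with DESeq2 (adjusted p 0.049), and without KO HFMCD replicate 1 (edgeR adjusted p 0.020) or 2 (edgeR adjusted p 0.0022). mt-Nd5 and mt-Nd6 overlap by 14 bases on opposite strands, and whether counting used strand is not given in the sources used here, so sense and antisense reads over mt-Nd6 cannot be told apart.

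**Figure D3:**
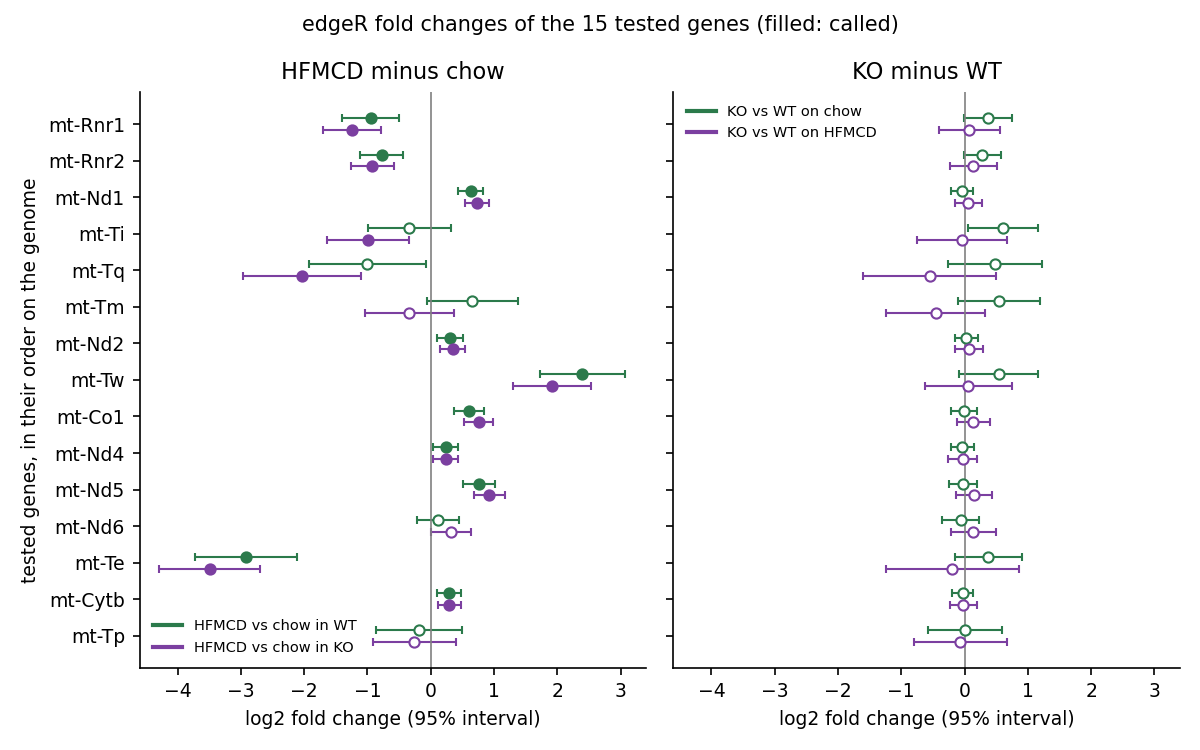
Log2 fold changes of the 15 tested mitochondrial genes in genome order, with 95% intervals from edgeR, for HFMCD minus chow (left) and KO minus WT (right), with filled points for an adjusted p under 0.05. With the diet both rRNAs lie left of 0 and 6 mRNAs right of it in WT and KO, and in the right plot no point is filled.

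A scaling factor acts on all genes of a library alike, so another scaling moves all log2 fold changes by nearly the same amount. The median over all tested genes moved from -0.05 with TMM to 0.11 with plain library totals in WT and from -0.02 to 0.16 in KO, and to 0.14 and 0.23 when each library was scaled to its hepatocyte markers. Relative to that median, mt-Co1 stood at 0.66 in WT and at 0.77 to 0.78 in KO under the 6 scalings tried. mt-Rnr1 stood at -0.92 to -0.90 and at -1.23 to -1.22. These narrow ranges follow from how scaling works and are given as a description only. No called mitochondrial gene changed sign under any of the 6. mt-Tp, which was not called, crossed 0 in WT (-0.18 to 0.01).

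The mRNAs of the heavy strand therefore did not move by 1 common factor. mt-Co1 counts per mt-Cytb count were 0.877 ± 0.0686 in WT livers on chow and 1.10 ± 0.0554 on HFMCD. In KO livers the same ratio was 0.889 ± 0.0866 on chow and 1.22 ± 0.0834 on HFMCD. The diets did not overlap in either genotype. mt-Nd1 and mt-Nd2 are separated only by tRNA genes, and their ratio went from 0.914 ± 0.0984 to 1.14 ± 0.0584 in WT and from 0.866 ± 0.0320 to 1.14 ± 0.156 in KO, also without overlap. mt-Nd5 counts per mt-Nd4 count went from 0.8005 ± 0.118 to 1.14 ± 0.179 in WT, with overlap, and from 0.807 ± 0.0688 to 1.29 ± 0.184 in KO, without. As a percent of all mitochondrial mRNA counts, mt-Cytb went down while its CPM went up, from 27.5% to 24.4% in WT and from 27.3% to 23.1% in KO, and mt-Co1 went up from 24.1% to 26.7% and from 24.2% to 28.1%. mt-Rnr2 counts per mt-Rnr1 count, by comparison, were 1.94 in WT and 1.84 in KO livers on chow and 2.18 and 2.30 on HFMCD, with overlap.

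The light-strand mRNA was set against the heavy-strand mRNAs in the same liver. mt-Nd6 counts per 1000 heavy-strand mRNA counts were 1.97 to 2.73 in WT livers on chow and 1.23, 1.83, 1.91 and 1.77 on HFMCD. The groups did not overlap, and the mean log2 ratio differed by -0.34 (-0.194 without WT HFMCD replicate 1), with p = 0.00952 in a two-sided exact permutation test, the smallest p that 6 against 4 livers allow, and 0.0381 after Benjamini-Hochberg adjustment over 4 comparisons. In KO livers the ratio was 1.61 to 2.37 on chow and 1.40, 1.20, 2.59 and 1.77 on HFMCD, with overlap and a difference of -0.29 (exact permutation p = 0.182, adjusted 0.364). KO and WT livers overlapped on both diets (exact permutation p = 0.711 on chow and 0.971 on HFMCD). When the denominator was all mitochondrial protein and rRNA counts, the WT difference between diets was -0.215 (exact permutation, adjusted p 0.727).

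**Figure D4:**
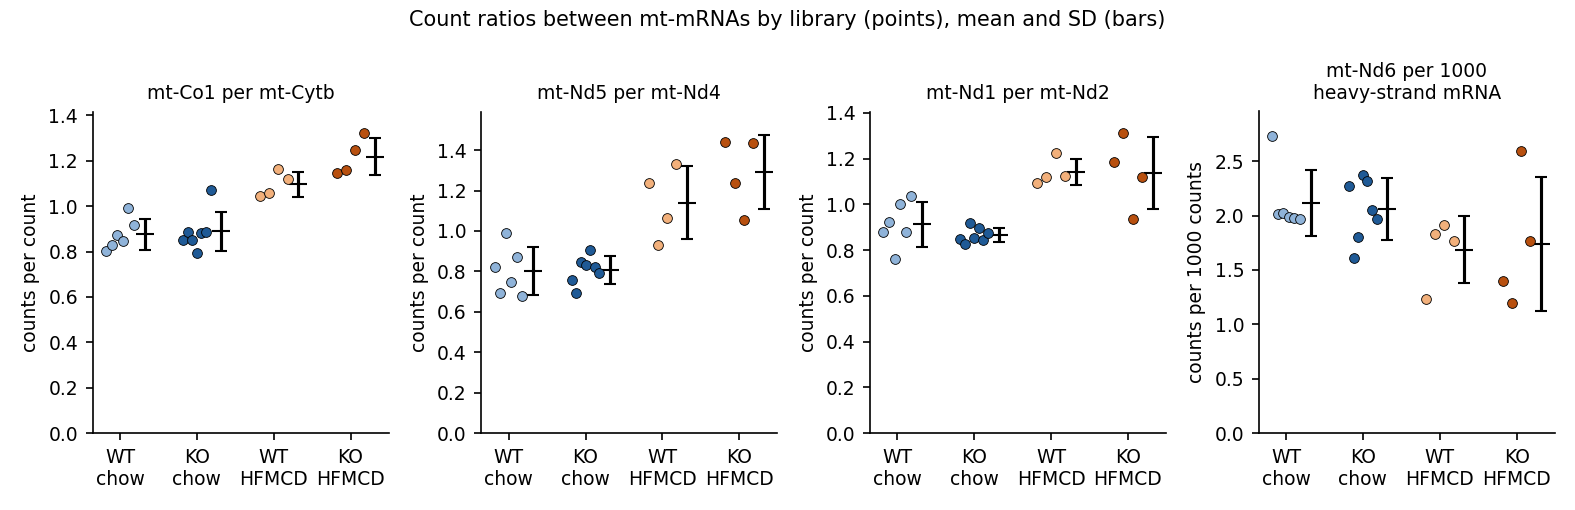
Count ratios within each liver by group (points), with mean and SD (bars), for mt-Co1 per mt-Cytb, mt-Nd5 per mt-Nd4, mt-Nd1 per mt-Nd2 and mt-Nd6 per 1000 heavy-strand mRNA counts. The mt-Co1 and mt-Nd1 ratios are higher in all livers on HFMCD than in the livers of the same genotype on chow, and mt-Nd6 in KO livers on HFMCD runs from 1.20 to 2.59.

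Of the 22 tRNA genes, 6 could be tested. mt-Tw, mt-Ti and mt-Tq were called with the diet in at least 1 genotype. mt-Te was called too, but its call is not read as a result because of how it passed the filter. Over all tested genes, 29% were called higher and 33.6% lower in WT, and 33.7% and 36% in KO. The sequences of these genes, mt-Te included, are printed from the GRCm38 annotation, 5' to 3'. Leaving mt-Te aside, mt-Tw was called higher in both genotypes, and mt-Ti and mt-Tq were called lower in KO only. Capitals mark the anticodon. mt-Te (chrM:14071-14139, minus strand) carries glutamate, mt-Tw (chrM:4950-5016, plus) tryptophan, mt-Ti (chrM:3706-3774, plus) isoleucine and mt-Tq (chrM:3772-3842, minus) glutamine.
mt-Te: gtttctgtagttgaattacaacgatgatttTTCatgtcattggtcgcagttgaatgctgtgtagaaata
mt-Tw: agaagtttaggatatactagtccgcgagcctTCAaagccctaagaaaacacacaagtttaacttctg
mt-Ti: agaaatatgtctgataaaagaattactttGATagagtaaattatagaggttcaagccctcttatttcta
mt-Tq: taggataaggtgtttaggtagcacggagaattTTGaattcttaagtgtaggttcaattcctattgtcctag

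mt-Te had 11 to 30 counts in WT and 18 to 35 in KO livers on chow, and 2 to 6 and 1 to 4 on HFMCD. In CPM it went from 1.02 ± 0.316 to 0.130 ± 0.0723 in WT and from 1.33 ± 0.265 to 0.114 ± 0.0561 in KO, without overlap. The fitted log2 difference was -2.92 (SE 0.39) and -3.49 (SE 0.39), given as a description because of how the gene passed the filter. mt-Nd6, which directly follows it on the same strand, was not called. mt-Tw rose. It was at 1.07 to 2.08 CPM in WT livers on chow and at 8.69, 8.24, 6.94 and 8.59 on HFMCD, and at 1.37 to 3.84 CPM in KO livers on chow and 6.71, 3.38, 12.6 and 11.2 on HFMCD. WT groups lay far apart, and KO groups overlapped through KO HFMCD replicate 2, with log2 fold changes of 2.40 (SE 0.32, edgeR adjusted p 1.4e-06) and 1.92 (SE 0.30, edgeR adjusted p 7.3e-06). mt-Nd2, which shares 2 bases with mt-Tw on the same strand, had log2 fold changes of 0.30 and 0.35.

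mt-Ti and mt-Tq, which overlap by 3 bases on opposite strands beside mt-Nd1, were called in KO livers. mt-Ti was at 13.7 to 31.7 CPM in KO livers on chow and at 6.79, 5.48, 18.1 and 10.3 on HFMCD, with overlap and a log2 fold change of -0.99 (edgeR adjusted p 0.0078, SE 0.31). In WT livers it was at 9.52 to 17.8 CPM on chow and 4.78, 11.3, 14.4 and 11.4 on HFMCD (log2 fold change -0.34, edgeR adjusted p 0.36). mt-Tq was at 1.28 to 3.65 CPM in KO livers on chow and at 0.755, 0.662, 0.543 and 0.340 on HFMCD, without overlap, and its log2 fold change was -2.04 (SE 0.45, edgeR adjusted p 0.00039). In WT livers its log2 fold change was -1.003 (SE 0.45, edgeR adjusted p 0.054), and the p was 0.0093 without WT chow replicate 4. mt-Tm, for methionine, and mt-Tp, for proline, were not called, with edgeR adjusted p of 0.11 and 0.64 in WT and 0.39 and 0.47 in KO. Counts over a tRNA gene do not tell a finished tRNA from a longer transcript that still holds it, and these are low counts, with at most 86 for mt-Tw and 80 for mt-Tq in a liver on chow.

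**Figure D5:**
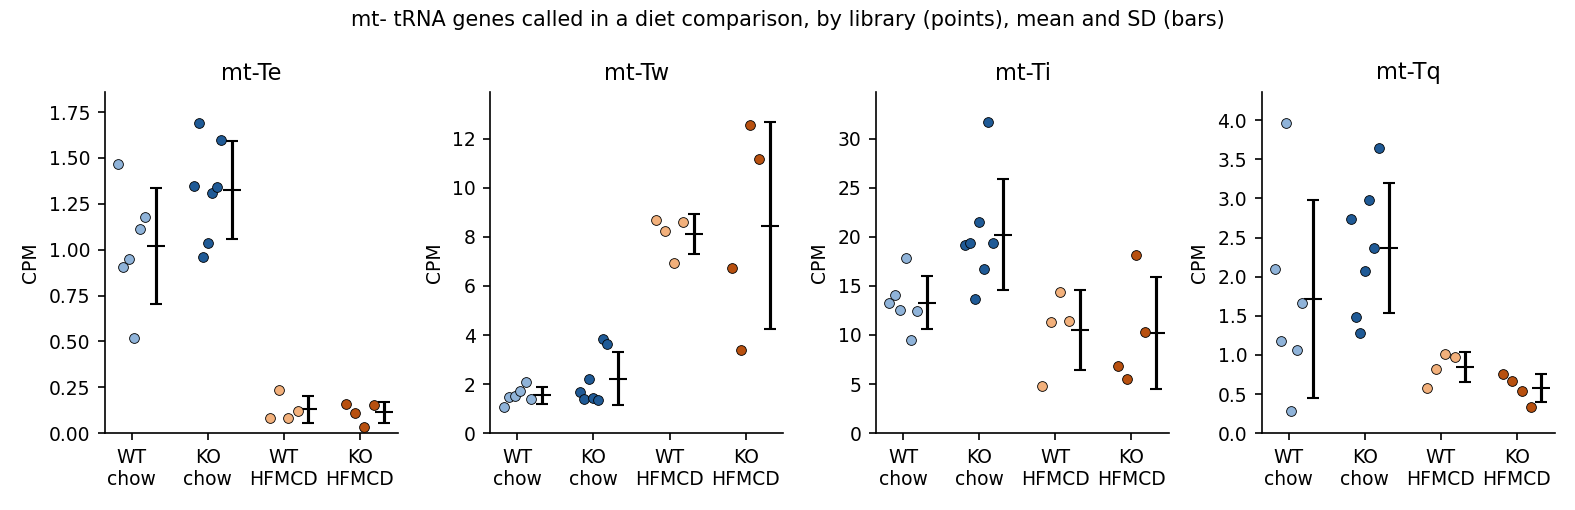
CPM of 4 mt- tRNA genes by liver (points) with mean and SD (bars). mt-Tw, mt-Ti and mt-Tq were called with the diet in at least 1 genotype, and the call of mt-Te is not read as a result. mt-Te is at or below 0.234 CPM in all livers on HFMCD, and mt-Tw is at 6.94 to 8.69 in WT livers on HFMCD and at 1.07 to 2.08 in WT livers on chow.

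Loss of Mboat7 from hepatocytes moved no mitochondrial transcript past the threshold. On chow 0 of the 15 were called, beside 0.561% of all tested genes called higher and 1.61% lower in KO. On HFMCD 0 of 15 were called, beside 0.223% higher and 0.0957% lower. At an unadjusted p under 0.05, 1 of the 15 passed on chow and 0 on HFMCD, beside 2806 and 1562 of all genes, and DESeq2 and limma-voom also called 0 of the 15 in both. On chow the gene that passed was mt-Ti, with a log2 fold change of 0.61 (edgeR adjusted p 0.23, SE 0.27). The rRNAs came next, mt-Rnr1 at 0.37 (SE 0.18, edgeR adjusted p 0.30) and mt-Rnr2 at 0.28 (SE 0.14, edgeR adjusted p 0.30). Without KO chow replicates 1 and 7 they were at 0.46 and 0.35 (edgeR adjusted p 0.18 and 0.23). That fit kept WT chow replicates 3 and 5, which also had raised gallbladder and gland mucosa markers. For the 6 heavy-strand mRNAs tested, the 95% intervals of the KO minus WT log2 fold change on chow all lay between -0.24 and 0.21. Those of the 6 tRNA genes were wider, from -0.57 to 1.23. On HFMCD the log2 fold changes of the 15 ran from -0.55 to 0.15. Whether the KO effect differed between diets was tested directly, and 0 of the 15 and 0% of all genes were called by edgeR, with 0 of the 15 at an unadjusted p under 0.05 beside 1581 of all genes, and with 0 of the 15 called by DESeq2 or limma-voom.

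Livers of 1 group also differed from each other, and some pairs of mitochondrial genes did so together. With the group means removed from log2 CPM over 21 libraries, mt-Rnr1 and mt-Rnr2 moved together, with Pearson's r = 0.915 (permutation p = 1e-05, the smallest 100000 resamples can give) and Spearman's rho = 0.8286 (permutation p = 0.00022), and r = 0.871 without the 2 livers farthest from the median. mt-Cytb and mt-Nd4 did so too, with r = 0.947 and rho = 0.877 (both permutation p = 1e-05) and r = 0.916 without 2 livers. For mt-Cytb and mt-Rnr2 r was 0.424 (permutation p = 0.066) and rho = 0.429 (permutation p = 0.088), and r was 0.437 without 2 livers, and whether the 3 correlations differ was not tested. After Benjamini-Hochberg adjustment over the 3 relations the p-values for r were 1.5e-05, 1.5e-05 and 0.066, and those for rho 0.00033, 3e-05 and 0.088. As a description, each of the 6 heavy-strand mRNAs had an r of 0.73 to 0.88 with the mean of the 6, which includes the gene itself, mt-Nd6 0.02, mt-Rnr1 -0.01 and mt-Rnr2 0.16. All these values share the library, its depth and its scaling. Among nuclear genes of at least 5 CPM, the 8 most like that mRNA mean were March7 (r = 0.745), Dlg3, G3bp2, Dpy19l4, Gypc, Trim2, Xiap and Papss2 (0.690), and among the 8 most opposite were Psph (r = -0.805), Lsm1, Srsf9, Map7d1, Cdc37, Ctsz and Erp29 (-0.712).

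Among the nuclear genes that serve mitochondrial DNA, Polrmt and Tfam fell with the diet and Mterf2 rose. Each list's counts stand beside the shares over all tested genes, 29% higher and 33.6% lower in WT and 33.7% and 36% in KO, and no list was tested against the rest. Of 34 tested genes for transcription and RNA processing, 2 were higher and 18 lower in WT, with a median log2 fold change of -0.27, and 5 and 14 in KO, with a median of -0.20. Polrmt, the mitochondrial RNA polymerase, went from 32.4 to 18.3 CPM in WT (log2 fold change -0.82, edgeR adjusted p 1.7e-07) and from 32.5 to 15.8 in KO (-1.03, edgeR adjusted p 2.2e-09). Tfam, which packs the DNA and opens its promoters, fell by 0.37 on the log2 scale in WT (edgeR adjusted p 0.00011) and by 0.35 in KO (edgeR adjusted p 0.00012). Tfb2m, the partner of the polymerase at promoters, was at -0.08 and -0.07 (edgeR adjusted p 0.55 and 0.57), and Slirp, which binds mRNAs with Lrpprc, was at -0.10 and 0.04 (edgeR adjusted p 0.42 and 0.74). Lrpprc itself fell by 0.33 in WT (edgeR adjusted p 0.0072) and was at -0.18 in KO (edgeR adjusted p 0.10). Mterf2, a member of the mitochondrial terminator family, rose from 1.40 to 5.42 CPM in WT (1.95, edgeR adjusted p 7.5e-08) and from 0.931 to 5.27 in KO (2.49, edgeR adjusted p 6.7e-10).

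Of 12 replication genes, 0 were higher and 5 lower in WT (median -0.19) and 2 and 5 in KO (median -0.20), among them Twnk, the helicase, at -1.09 and -1.20 (edgeR adjusted p 3.4e-10 and 3.4e-11), and Polg, the DNA polymerase, at -0.63 and -0.77. Of 77 mitoribosomal protein genes, the partners of the 2 rRNAs, 6 were higher and 26 lower in WT (median -0.13) and 16 and 26 in KO (median -0.05), shares called lower that are close to those over all tested genes, with Mrpl18 at -1.24 and -1.60 and Mrpl24 at -0.79 and -0.67. Of 19 mitochondrial tRNA synthetases, 3 were higher and 9 lower in WT (median -0.14) and 6 and 8 in KO (median -0.01), with Hars2, for histidine, at -0.87 and -0.90. Of 13 translation factors, 2 were higher and 4 lower in WT (median -0.05) and 3 and 3 in KO (median 0.04), with Mtif3, an initiation factor, at -0.57 and -0.55 and Taco1, which aids the translation of mt-Co1, at 0.66 and 0.84. Of 8 regulators of mitochondrial biogenesis, 0 were higher and 6 lower in WT (median -0.55) and 0 and 5 in KO (median -0.61), with Ppargc1a at -1.31 and -1.11 (edgeR adjusted p 0.003 and 0.007). Of 15 genes used as a gauge of mitochondrial mass, 4 were higher and 5 lower in WT (median -0.03) and 5 and 3 in KO (median 0.12), with Cs, citrate synthase, at 0.53 and 0.37. Of 14 mitochondrial proteases and chaperones, 1 was higher and 7 lower in WT (median -0.19) and 2 and 5 in KO (median -0.08), with Clpp, a matrix protease, at -0.91 and -0.72. On chow, the KO calls in these lists were all lower, beside 1.61% of all tested genes called lower and 0.561% higher. They were Tefm, Rexo2 and Tfb1m of the transcription list (log2 fold change -0.47, -0.29 and -0.63, edgeR adjusted p 0.025, 0.037 and 0.048), the chaperones Hspe1 (-0.51, edgeR adjusted p 0.032) and Hspd1 (-0.46, edgeR adjusted p 0.046), and 1 each of the ribosomal, synthetase and respiratory chain lists. A fit of the chow groups alone called 2 of all genes, against 340 in the main fit. These nuclear genes were not followed through the alternative fits.

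In complexes I, III and IV the called mitochondrial subunit genes were all higher with the diet, while nuclear subunit genes went both ways. The difference between the 2 kinds was not tested, and the same shares over all tested genes apply. For complex I, 4 of the 5 tested mitochondrial subunits of 7 were higher and 0 lower in both genotypes, while of 47 nuclear Nduf genes 6 were higher and 19 lower in WT and 7 and 19 in KO. For complex III, mt-Cytb was higher, and of 9 nuclear genes 1 was higher and 4 lower in WT and 1 and 3 in KO. For complex IV, mt-Co1 was higher, and of 14 nuclear genes 4 were higher and 6 lower in WT and 2 and 6 in KO. ATP synthase had 0 of its 2 mitochondrial subunits tested, and of 17 nuclear genes 1 was higher and 5 lower in WT and 3 and 7 in KO. Complex II, which has no mitochondrial subunit, had 1 of 4 genes higher and 1 lower in both. Over the 92 nuclear respiratory chain genes tested, the median log2 fold change was -0.14 in WT and -0.16 in KO, with Ndufs7 at -1.004 and -1.06 and Cycs, cytochrome c, at -1.06 and -0.95, and with Atp5g2 at 1.27 and 1.55.

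The sum of RNAs kept in the nucleus was lower with the diet, while that of RNAs without poly(A) tails overlapped between diets. RNAs without poly(A) tails summed to 7.38 to 19.5 CPM in WT and 7.44 to 23.8 in KO livers on chow and to 5.52 to 16.7 and 3.20 to 8.50 on HFMCD, with overlap. Of 6 tested, 3 were higher and 2 lower in WT and 3 and 3 in KO, with the histone gene Hist1h1d at 4.22 and 4.87 and Rn7sk, a small nuclear RNA, at -1.69 and -3.36. RNAs kept in the nucleus summed to 1718 to 2472 CPM in WT and 1691 to 2653 in KO livers on chow and to 450.6 to 712.7 and 412.9 to 532.0 on HFMCD, without overlap, with Malat1 at -1.78 and -1.94. Of the 5 summed, 1 was called higher and 4 lower in WT, and 0 and 5 in KO, beside the shares over all tested genes given above. Malat1 alone had 1486 CPM of a mean sum of 2111 in WT livers on chow. Whether the libraries were made by poly(A) selection or by rRNA depletion is not given in the sources used here, and the part of RNA capture or of nuclear RNA in the mitochondrial shares was not tested.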

How the data were processed

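Raw counts of reads per gene were deposited by the authors for each liver. Per the submitters' processing notes, CASAVA 2.17, STAR 2.6.1d, featureCounts 1.6.1 and GRCm38 were used, and their settings, strand and treatment of reads with several positions are not given in the sources used here. All genes of 21 libraries were fitted together in R 4.3.3 with edgeR 4.0.16 (filterByExpr, TMM, quasi-likelihood test, 4 group means, Benjamini-Hochberg adjustment over 15677 genes), checked on simulated data, with limma 3.58.1 and DESeq2 1.42.0 as alternatives. Shares use all counts, and CPM the TMM-scaled totals. Replicates are numbered in accession order, and no 2 libraries were identical. Nuclear copies came from alignment to GENCODE M21 transcripts (at least 85% identity over 50 bases), and those named were picked for their place in the chromosome 1 stretch or their level. The genes named are all mt- protein and rRNA genes, the tested tRNA genes and, from each list, called genes with the smallest p, while Tfam, Tfb2m, Lrpprc and Slirp were always given. The members and lists were chosen with earlier results of these data known. Alternatives were other scalings, filters and tools, fits of the compared groups alone, and fits with livers left out. Scaling to hepatocyte markers was added after seeing the data. Values of 2 nuclear genes that the naming rule picks are not reported here.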

Additional observations from a re-analysis of the deposited data

Results flagged for a closer look

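In groups of 4 to 7 livers, 10 of the 88 sets of values checked had 1 liver far from the rest by Dixon's criterion, which chance alone gives in about 1 of 20. 2 of the 10 are mitochondrial genes. mt-Cytb was at 13880 CPM in WT HFMCD replicate 1, against 11329 to 11628 in the other 3 livers of that group. mt-Tm was at 2.27 CPM in WT HFMCD replicate 2, against 1.36 to 1.4996.

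The other 8 are counts of nuclear copies. Gm28437, the copy of mt-Co3, had 449 counts in WT chow replicate 2 (others 0 to 150), 960 in KO chow replicate 1 (others 0 to 4), 6 in WT HFMCD replicate 1 (others 0 to 1) and 124 in KO HFMCD replicate 1 (others 0 to 1). Gm10925, the copy of mt-Atp6, had 1347 counts in KO HFMCD replicate 1 (others 0 to 26) and 1 in WT HFMCD replicate 1 (others 0). Gm29216, the copy of the end of mt-Co1, had 519 counts in KO chow replicate 6 (others 2 to 21). Gm13341, a diverged copy of mt-Co2, had 114 counts in KO chow replicate 2 (others 44 to 64).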

How the results depend on the processing

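The number of mitochondrial genes called with the diet ran from 7 to 11 in WT and from 11 to 13 in KO over all alternatives, and 0 were called for the KO comparisons in each one run. No called gene reversed. Over all alternative fits of the diet comparisons, those without 1 liver included, 932 values of single genes kept their side of the threshold, 13 gained a call and 15 lost one, and beside those given with the genes above these are as follows. mt-Nd4 lost its call in WT with a filter of 1 CPM in 4 libraries (adjusted p 0.058), with the compared groups alone (0.057) and without WT HFMCD replicate 2 (0.074), WT chow replicate 1 (0.075) or WT chow replicate 3 (0.089), and in KO without KO HFMCD replicate 4 (0.10) or KO chow replicate 4 (0.062), 5 (0.064) or 7 (0.057). mt-Tq in WT gained a call with DESeq2 (0.041) and without WT chow replicate 5 (0.0496), and mt-Tm in WT with limma-voom (0.044), plain totals (0.049) and the compared groups alone (0.046). mt-Ti in KO lost its call when scaled to hepatocyte markers (0.065). The mt-Nd6 ratio between diets in WT was -0.215 (exact permutation, adjusted p 0.727) over all mt- protein and rRNA counts, and -0.406 to -0.194 with 1 liver left out, where no p could pass after adjustment. Fits of the compared groups alone were not run for the difference between diets of the KO effect. No paired analysis was possible because no label links livers across groups. Depth limits the tRNA genes, with 1 to 35 counts for mt-Te per liver.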
